A study of Mus musculus with 9 samples.

Results

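The 9 forebrain RNA-seq samples were divided into a high and a low class by the measured level of 1 gene, *Ttr*. It encodes transthyretin, the thyroid hormone carrier that the choroid plexus secretes. Embryos with over 100 *Ttr* reads per 1000000 counted reads (CPM) formed the high class, which held 4 of the 9 embryos (WT15, WT16, WT41 and HET24). Embryos under 100 CPM formed the low class, which held 5 of the 9 (WT5, WT43, HET5, HET6 and HET7). *Ttr* was at 2573 CPM in WT15, 2164 CPM in WT16, 2657 CPM in WT41 and 471 CPM in HET24. It was at 0.750 CPM in WT5, 2.12 CPM in WT43, 2.46 CPM in HET6, 5.67 CPM in HET5 and 11.7 CPM in HET7. The embryos nearest the threshold were therefore HET7 below it and HET24 above it, and no embryo lay between 11.7 and 471 CPM.

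All embryos were female, taken at E16 to E17 on the C57BL/6J background. WT embryos were *Npas3*+/+ and HET embryos were *Npas3*+/-, carrying one copy of a constitutive deletion of *Npas3*, which encodes a transcription factor. They came from matings of HET mice with HET or C57BL/6J mice, and the WT embryos were littermates. The deletion is present in every cell of an embryo, so no cell type was targeted. *Npas3* itself was at 29.9 to 40.96 CPM in the 5 WT and 27.9 to 34.1 CPM in the 4 HET embryos, so the genotypes overlapped. The labels call the cells astrocytes, whereas the tissue is bulk forebrain. The astrocyte genes *Gfap*, *Aqp4* and *S100b* were at 4.25 to 12.5 CPM, 0.163 to 1.99 CPM and 0.0888 to 0.327 CPM across the 9 embryos. Other genes of the ventricular zone and astroglia were higher, with *Aldh1l1* at 2.80 to 31.2 CPM, *Slc1a3* at 248 to 314 CPM and *Fabp7* at 269 to 756 CPM. The neuronal genes *Tubb3* and *Neurod6* were at 1577 to 1900 CPM and 709 to 1100 CPM. The high class holds 3 WT embryos and 1 HET embryo, so genotype entered each fit as a covariate.

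The choroid plexus is a folded sheet of epithelium that grows from the roof of the brain ventricles around a core of vessels and stroma. Its epithelial cells secrete cerebrospinal fluid by moving ions and water, are sealed by tight junctions, carry tufts of motile cilia, and release carrier and growth-regulating proteins into the fluid. The tissue hangs in the ventricles of the forebrain and can come away with the brain or stay behind when the forebrain is dissected. In bulk tissue, a lower level cannot be told apart as fewer cells of a type or as less RNA per cell. The amount of plexus in each dissection was not measured other than through these RNAs.

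CPM values from here on use library sizes scaled by the trimmed mean of M-values (TMM). Library totals were 42640218 to 62830060 counts, and every pair of libraries differed by more than sampling noise. Mitochondrial genes held 1.55% to 1.995% and hemoglobin genes 0.0211% to 0.0559% of the counts, with the high class at 1.82% to 1.995% and 0.0352% to 0.0559%. WT5, WT16, HET7 and HET24 stood apart from embryos of their genotype or class in one or more of the values below, and are named beside each. The groups hold separate embryos, and the litters were not given. A count of 3 reads, taken as the floor, corresponds to 0.0477 to 0.0704 CPM in these libraries and covers counting error only.

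Over all 9 embryos, 165 of 19240 tested genes (0.858%) were higher and 5 (0.026%) were lower in the high class at an adjusted p under 0.05 (edgeR quasi-likelihood, genotype as covariate, Benjamini-Hochberg). The classes were made from a gene in the same counts, so these p-values order the genes and are not a test of a condition, and nothing is read from the shares. The 4 high embryos all lay above the 5 low embryos for 163 of the 165 genes, which their choice in these same embryos largely fixed, and all lay below for 2 of the 5 lower genes. Over all tested genes, 3.2% had all high embryos above and 1.51% all below. The count of higher genes moved with single embryos, from 25 without WT5 and 26 without WT43 to 382 without HET7 and 392 without HET24. Of the 165 genes, 39 belong to the 20 lists of cell type markers described here, and 126 to none of them. Protein-coding genes were 90.2% of the 164 higher genes with an annotation entry and 78.8% of all tested genes with one. At the low end, 40 of the genes were under 1 CPM in every embryo, and 7 had no read in any low embryo, which allows up to the floor of 3 counts per library. At the high end, 32 averaged 10 CPM or more in the high embryos. On the chart of each list's log2 fold changes, the choroid plexus identity list lies farthest to the right.

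**Figure D1:**
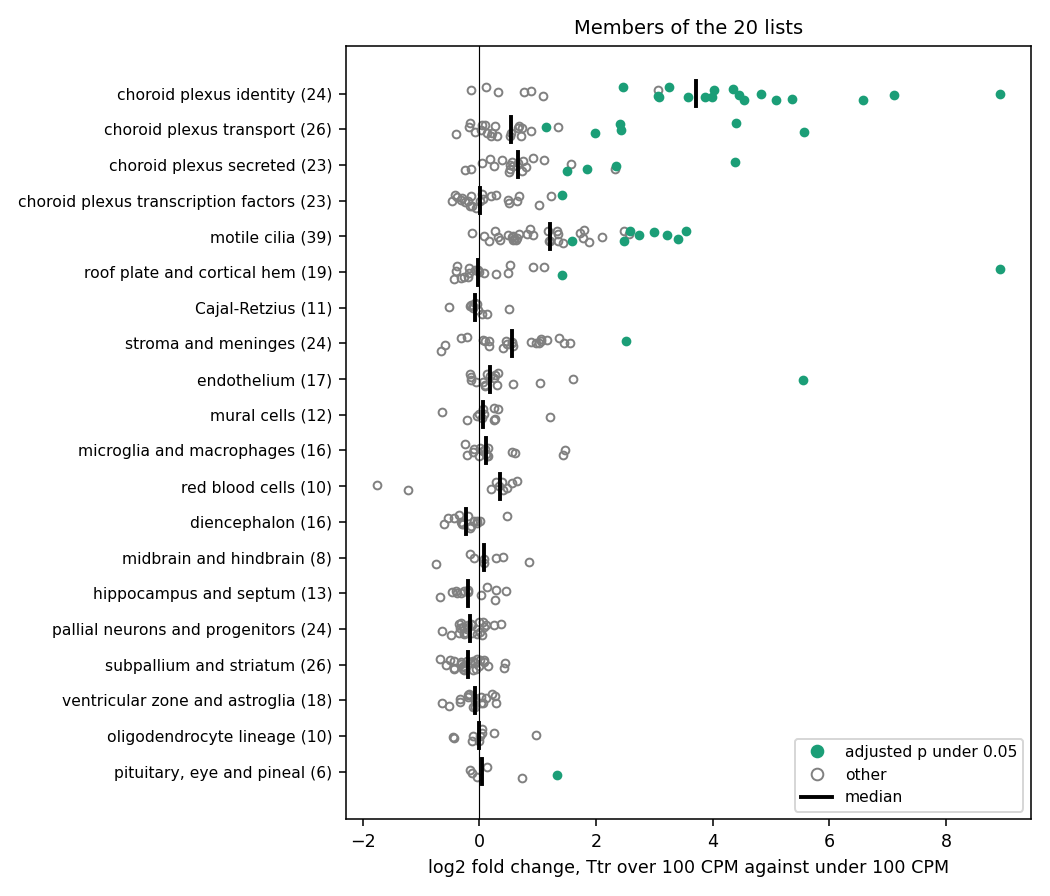
Log2 fold change of every tested member of the 20 marker lists between embryos with *Ttr* over and under 100 CPM, with genotype as covariate. The number of tested members stands in brackets, filled points passed an adjusted p of 0.05, and bars mark medians, which run from -0.24 for the diencephalon list to 3.72 for choroid plexus identity.

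The 24 choroid plexus identity genes, chosen as markers of its epithelium, were the list with the most members higher. Of the 24, 17 passed the threshold as higher and 0 as lower, but the list holds *Ttr*, whose level made the classes. Without *Ttr*, 16 of 23 passed, the median log2 fold change was 3.58 against -0.00 over all tested genes, and the 4 high embryos all lay above the low embryos in 20 of 23. Over all tested genes, 0.858% passed as higher and 3.2% had all high embryos above. The list was chosen with earlier results of these data known, so these counts are a description. With *Ttr* counted, at an unadjusted p under 0.05, edgeR gave 22 higher and 0 lower, DESeq2 gave 20 higher and 0 lower at its adjusted threshold, and limma-voom gave 18 and 0. Without WT5 or WT43 the count was 11 of 24.

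*Kcne2*, which encodes a subunit of potassium channels, was at 56.0 CPM in WT15, 43.4 CPM in WT16, 49.7 CPM in WT41 and 9.18 CPM in HET24. In the low embryos it was at 0.265 CPM in WT5, 0.178 CPM in WT43, 0.217 CPM in HET5, 0.163 CPM in HET6 and 0.413 CPM in HET7. The classes did not overlap, and the HET embryo of the high class lay well below its 3 WT embryos. The log2 fold change of *Kcne2* was 6.57 (SE 0.42). The gene lies on chromosome 16 from 92292389 to 92298129 (GRCm38, GENCODE M21).

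*Folr1*, the folate receptor through which the plexus passes folate into the fluid, was at 34.6, 31.0 and 34.5 CPM in WT15, WT16 and WT41 and at 7.14 CPM in HET24. It was at 0.700 and 0.689 CPM in WT5 and WT43 and at 1.22, 1.10 and 1.36 CPM in HET5, HET6 and HET7. The low HET embryos thus all lay above the low WT embryos, whereas the high HET embryo lay below the high WT embryos. Its log2 fold change was 4.36 (SE 0.50). *Tmem72*, a membrane protein, was at 59.3, 27.5 and 52.0 CPM in WT15, WT16 and WT41, at 6.68 CPM in HET24 and at 0.0965 to 0.200 CPM in the low class. WT16 was the lowest WT embryo of the high class for *Tmem72* by a wide margin, and 29.1% of its 50-base words are shared with other annotated transcripts.

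*Clic6*, a chloride intracellular channel gene, was at 115, 90.8 and 100.5 CPM in WT15, WT16 and WT41, at 22.1 CPM in HET24 and at 2.69 to 5.14 CPM in the low class. The tight junction genes *Cldn1* and *Cldn2*, which encode claudins, had log2 fold changes of 5.35 (SE 0.44) and 3.99 (SE 0.66), and *Cldn3*, another claudin gene, had 0.32 (SE 0.14). *Cldn3* was at 8.89 to 10.9 CPM in the high and 5.77 to 9.63 CPM in the low embryos, so its classes overlapped. The epithelial keratin genes *Krt8* and *Krt18* had log2 fold changes of 4.44 (SE 0.43) and 4.83 (SE 0.55), with low embryos at 0.0217 to 0.268 CPM, in part under the floor of 3 counts. *Krt8* shares 29.7% of its 50-base words with other annotated transcripts. *Kcnj13*, a potassium channel gene with a log2 fold change of 4.54 (SE 0.44), is uncertain, because 49.1% of its exonic bases overlap another gene.

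The other members past the threshold were *Slc13a4*, a sulfate transporter gene (log2 fold change 5.09), *Wfikkn2* and *Sostdc1*, which encode secreted antagonists of growth factors (3.87 and 3.25), *Col8a1*, a collagen gene (3.58), *Calml4* (3.08), *F5*, coagulation factor V (3.07), and *Htr2c*, the serotonin receptor 2C gene (2.46). *Htr2c* was at 40.0, 27.8 and 34.2 CPM in WT15, WT16 and WT41, at 11.9 CPM in HET24, at 8.77 CPM in HET7 and at 3.06 to 4.48 CPM in the other low embryos. HET7 and HET24 were thus closer to each other for *Htr2c* than to the rest of their classes. The 7 members that did not pass included *Kl*, the klotho gene, at 1.07 to 2.26 CPM in the high WT embryos, 0.462 CPM in HET24 and 0 to 0.309 CPM in the low class. They also included *Prlr*, the prolactin receptor gene, which was highest in HET7, at 1.13 CPM against 0.131 to 0.699 CPM in the high class.

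**Figure D2:**
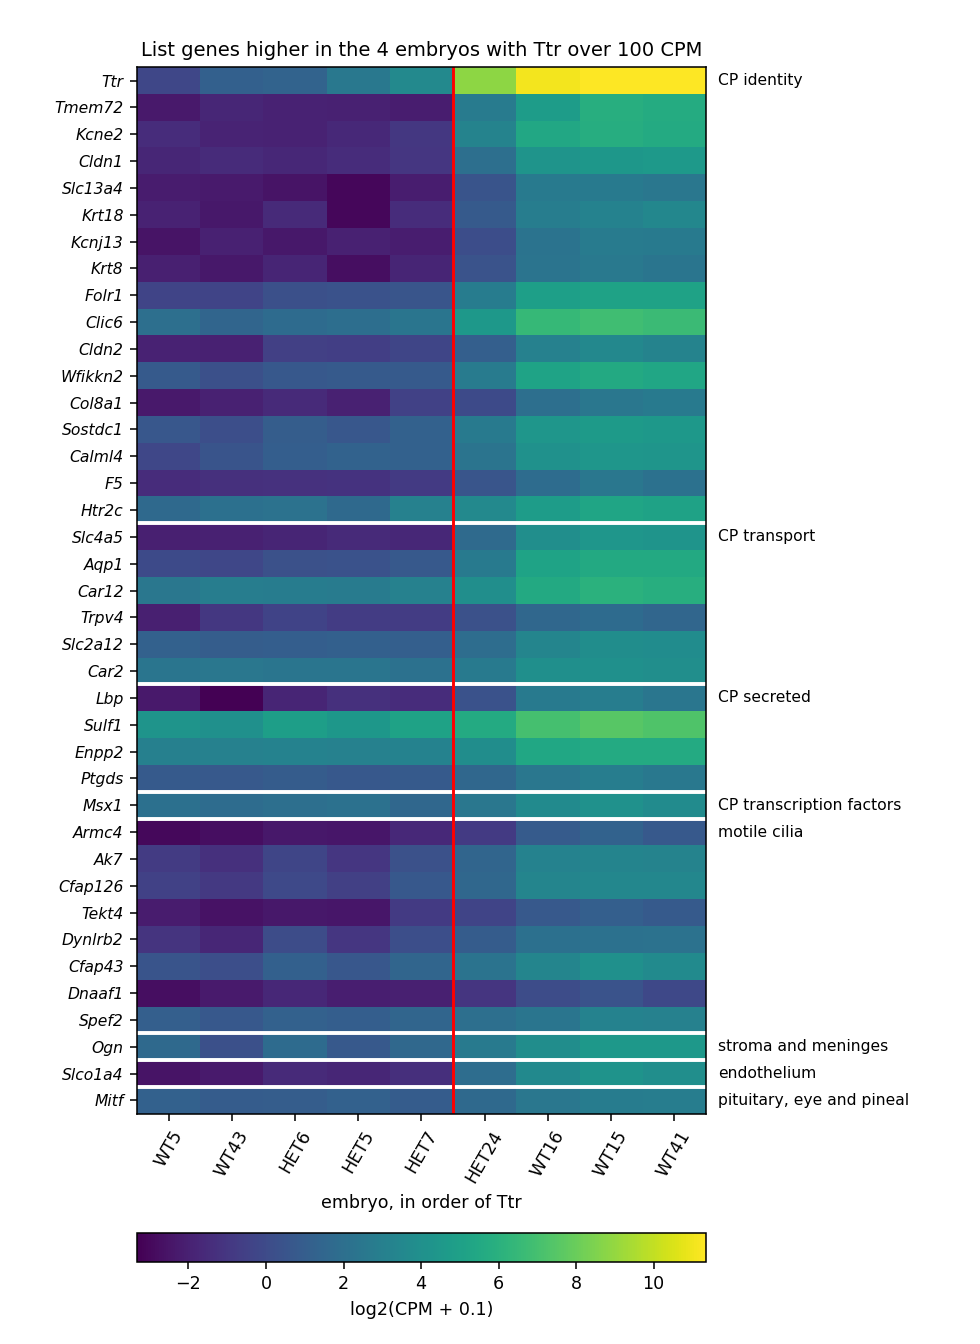
Expression of the 39 list genes that were higher in the high class, as log2(CPM + 0.1), in the 9 embryos ordered by *Ttr*, with the red line at 100 CPM. The column of HET24 lies between the low embryos and the 3 WT embryos of the high class, and HET7 is the highest low embryo in 7 of the 8 cilia rows, the exception being *Dnaaf1*.

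Genes of ion and water transport were split. Of 26 members, 6 passed as higher and 0 as lower, and the median log2 fold change was 0.54. All high embryos lay above the low embryos in 8 and below them in 0. Over all tested genes, 0.858% were higher, 3.2% had all high embryos above and 1.51% had all below. *Aqp1*, the water channel of the apical membrane, was at 48.1, 35.8 and 47.4 CPM in WT15, WT16 and WT41 and at 6.37 CPM in HET24. It was at 0.868 and 0.777 CPM in WT5 and WT43, at 1.17 CPM in HET5 and HET6 alike and at 1.61 CPM in HET7, with a log2 fold change of 4.396 (SE 0.59). *Slc4a5*, a sodium bicarbonate cotransporter gene, was at 14.8 to 21.03 CPM in the high WT embryos, 3.29 CPM in HET24 and 0.145 to 0.239 CPM in the low class, with a log2 fold change of 5.56 (SE 0.45).

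The carbonic anhydrase genes *Car12* and *Car2*, the osmotically gated channel gene *Trpv4* and the sugar transporter gene *Slc2a12* had log2 fold changes of 2.43, 1.13, 2.41 and 1.98. The remaining 20 members did not pass, and the list summed to 916 to 1236 CPM in the high and 889 to 963 CPM in the low embryos. *Slco1a5*, an organic anion transporter gene, was at 0.115 to 0.570 CPM in the high and 0.0700 to 0.222 CPM in the low embryos. DESeq2 gave 9 higher and 1 lower, and 1 member remained past the threshold of edgeR's fit without WT5 or without WT43.

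Of 23 tested genes of secreted plexus proteins, 4 passed as higher and 0 as lower, with a median log2 fold change of 0.67. All high embryos lay above the low embryos in 10, beside 0.858% higher and 3.2% all above over all tested genes. *Sulf1*, which encodes an extracellular enzyme that removes sulfate from heparan sulfate, was at 184, 131 and 158 CPM in WT15, WT16 and WT41 and at 49.6 CPM in HET24. It was at 19.1, 16.5, 21.7, 29.4 and 34.2 CPM in WT5, WT43, HET5, HET6 and HET7, which gave a log2 fold change of 2.35 (SE 0.42). *Sulf1* was thus present in every low embryo, with HET7 nearest to HET24. *Enpp2*, the gene of autotaxin, was at 42.1 to 49.6 CPM in the high WT embryos, 14.4 CPM in HET24 and 8.35 to 9.05 CPM in the low class, with a log2 fold change of 1.85 (SE 0.30). The other members past the threshold were *Lbp*, the lipopolysaccharide-binding protein (log2 fold change 4.39), and *Ptgds*, a prostaglandin D synthase (1.496).

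*Igf2*, which encodes a growth factor, was at 5.70 to 10.4 CPM in the high WT embryos, 5.54 CPM in HET24 and 3.36 to 4.17 CPM in the low class, without overlap, and did not pass (log2 fold change 0.92, SE 0.20). DESeq2 counted 13 of the 23 as higher, and edgeR's count was 0 without WT5, WT41 or WT43 and 12 without HET24.

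Few regulators of plexus fate passed the threshold. Of 23 transcription factor genes, 1 passed as higher and 0 as lower, with a median log2 fold change of 0.01. All high embryos lay above the low embryos in 3. The same shares over all tested genes were 0.858% higher and 3.2% all above. *Msx1*, a homeobox gene of the dorsal midline, was at 17.2, 13.02 and 13.2 CPM in WT15, WT16 and WT41, at 5.48 CPM in HET24 and at 2.89 to 4.28 CPM in the low class, with a log2 fold change of 1.42 (SE 0.27). *Otx2*, the homeobox gene needed for plexus epithelium, overlapped between the classes. It was at 39.5, 29.2, 40.2 and 22.6 CPM in WT15, WT16, WT41 and HET24 and at 32.9, 11.3, 15.2, 25.03 and 21.02 CPM in WT5, WT43, HET5, HET6 and HET7. WT5, with the least *Ttr* of all, thus had more *Otx2* than HET24.

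Genes of motile cilia, which beat on plexus and ependymal cells, were higher in part of the list. Of 39 members, 8 passed as higher and 0 as lower, and the median log2 fold change was 1.21. All high embryos lay above the low embryos in 15, again beside 0.858% higher and 3.2% all above over all tested genes. The 8 were *Armc4*, *Ak7*, *Cfap126*, *Tekt4*, *Dynlrb2*, *Cfap43*, *Dnaaf1* and *Spef2*, which encode parts or assembly factors of the axoneme, with log2 fold changes from 1.58 for *Spef2* to 3.55 for *Armc4*. *Cfap126* was at 11.02, 10.3 and 10.8 CPM in WT15, WT16 and WT41 and at 2.83 CPM in HET24. It was at 0.603, 0.444, 0.587 and 0.840 CPM in WT5, WT43, HET5 and HET6 and at 1.57 CPM in HET7, with a log2 fold change of 3.22 (SE 0.53).

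For the cilia list, HET7 and HET24 were close to each other although their *Ttr* differed. Its 39 genes summed to 385, 287 and 363 CPM in WT15, WT16 and WT41, 221 CPM in HET24 and 222 CPM in HET7, and to 151 to 187 CPM in the other low embryos. The mean log2 CPM of the list was 1.77 in HET24 and 1.67 in HET7, the other way round from the sums. HET7 was the highest low embryo for 32 of the 39 cilia genes, against 28.0% of all tested genes, and lay above HET24 for 20 of the 39. By contrast, HET7 lay above HET24 for 2 of the 24 choroid plexus identity genes. *Foxj1*, the regulator of motile cilia, was at 28.0 to 31.5 CPM in the high WT embryos, at 20.1 CPM in HET24, at 20.4 CPM in HET7 and at 13.99 to 17.8 CPM in the other low embryos, and did not pass (log2 fold change 0.68, SE 0.16). The count of 8 cilia genes was 0 without WT5 or WT43 and 21 without HET7 or HET24, and DESeq2 gave 23.

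**Figure D3:**
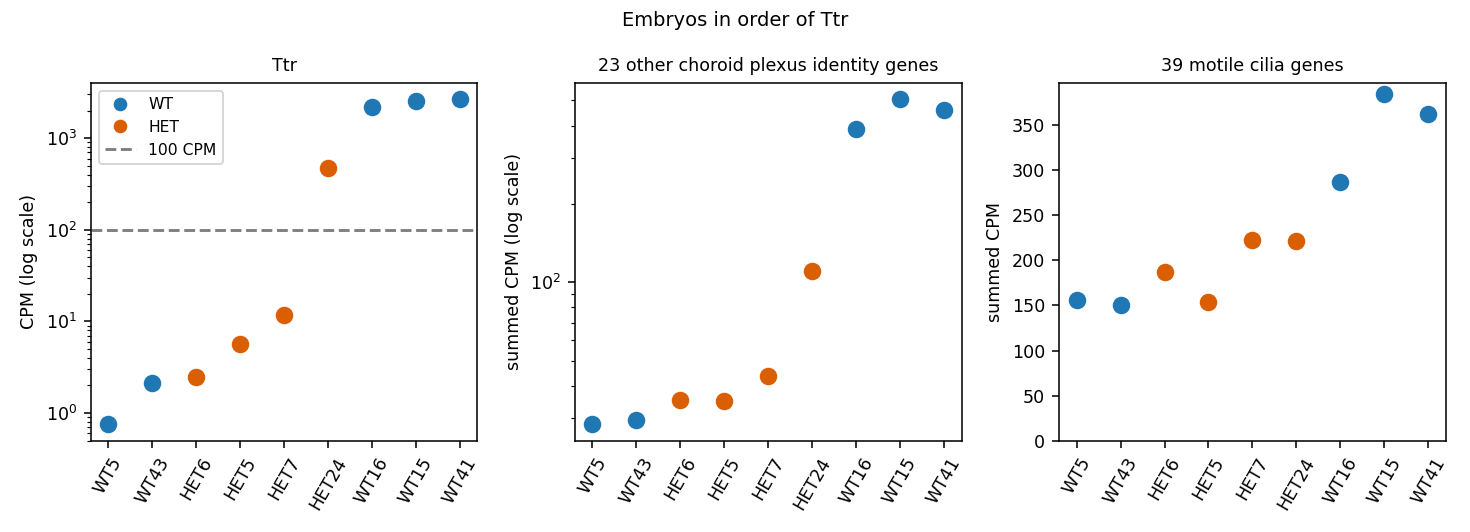
*Ttr* (CPM, log axis), the summed CPM of the 23 other tested choroid plexus identity genes (log axis) and the summed CPM of 39 motile cilia genes (linear axis from 0) in each embryo, in order of *Ttr*, with 1 point per embryo. The 3 high WT embryos are at 387 to 505 CPM for the identity genes and HET24 is at 110.0 CPM, whereas HET24 and HET7 are level for cilia genes at 221 and 222 CPM.

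In the lists for the other tissues of a forebrain dissection, edgeR's adjusted threshold passed 0 to 2 genes each. At an unadjusted p under 0.05, edgeR gave 6 higher and 4 lower of 19 for the roof plate and cortical hem. It gave 11 higher and 2 lower of 24 for stroma and meninges, and 8 higher and 0 lower of 17 for endothelium. DESeq2 at its adjusted threshold gave 5, 6 and 4 higher and 0, 1 and 0 lower. The roof plate list holds *Ttr*, whose level made the classes, and its median log2 fold change was -0.03. In the roof plate and cortical hem, the 2 of 19 that passed were *Ttr* and *Msx1*, which other lists also hold. Of 24 genes of stroma and meninges, 1 passed, *Ogn*, which encodes a small proteoglycan of connective tissue. *Ogn* was at 22.8, 14.7 and 22.2 CPM in WT15, WT16 and WT41, at 6.33 CPM in HET24 and at 1.09 to 3.36 CPM in the low class, with a log2 fold change of 2.52 (SE 0.46). The median of that list was 0.55, and its sums were 284 to 384 CPM in the high and 295 to 337 CPM in the low embryos. In 5 of its 24 genes all high embryos lay above the low embryos, beside 3.2% of all tested genes.

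Of 17 endothelial genes, 1 passed, *Slco1a4*, an organic anion transporter gene. *Slco1a4* was at 18.2, 12.3 and 15.01 CPM in WT15, WT16 and WT41, at 3.62 CPM in HET24 and at 0.0724 to 0.289 CPM in the low class, with a log2 fold change of 5.55 (SE 0.50). The endothelial list as a whole summed to 254 to 321 CPM in the high and 254 to 279 CPM in the low embryos, which overlapped. The mean log2 CPM of its genes was 3.13 to 3.60 in the high and 2.71 to 2.87 in the low embryos, which did not overlap. That mean includes *Slco1a4*, at 3.62 CPM in HET24 and 0.0724 to 0.289 CPM in the low class. It was not computed without that gene. Of the 17 genes, 5 had all high embryos above, beside 3.2% of all tested genes. *Mitf*, which encodes a transcription factor of pigmented cells, was the 1 of 6 genes that passed in the list for pituitary, eye and pineal gland, with a log2 fold change of 1.33 (SE 0.22).

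No member passed in the lists for Cajal-Retzius cells (11 genes), mural cells (12), microglia and macrophages (16), red blood cells (10), diencephalon (16), midbrain and hindbrain (8), hippocampus and septum (13), pallial neurons and progenitors (24), subpallium and striatum (26), ventricular zone and astroglia (18) and the oligodendrocyte lineage (10). Their median log2 fold changes were between -0.24 and 0.36. At an unadjusted p under 0.05, edgeR gave at most 2 higher and at most 5 lower members in any of them, the 5 being among pallial genes, and DESeq2 at its adjusted threshold gave 1 higher gene among microglia and macrophages and 1 lower gene each among mural cells and hippocampus and septum. Limma-voom gave 0 in all of them. The 2 most abundant members of each list overlapped in most cases, such as *Neurod6* at 732 to 1100 CPM in the high and 709 to 904 CPM in the low class, and *Csf1r* at 15.1 to 19.7 CPM and 15.5 to 18.4 CPM. Diencephalon genes summed to 523 to 614 CPM in the high and 588 to 815 CPM in the low embryos, the highest being WT5. Red blood cell genes summed to 358 to 575 CPM and 224 to 449 CPM, the lowest being WT5 and the highest WT16. The part of these lists in the results above was not tested.

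Among the 126 higher genes of no list, those described here were chosen after their values were seen, by their excess in CPM. *Slc6a15*, an amino acid transporter gene, was at 237, 199.6 and 219 CPM in WT15, WT16 and WT41, at 124 CPM in HET24 and at 75.7 to 111 CPM in the low class, so it was plainly present in every embryo. *Trpm3*, an ion channel gene, was at 108, 62.0 and 88.9 CPM in WT15, WT16 and WT41, at 38.98 CPM in HET24, at 33.0 CPM in HET7 and at 18.0 to 24.6 CPM in the other low embryos. *Gpc3*, a cell surface proteoglycan gene, was at 45.3 to 50.9 CPM in the high WT embryos, 16.8 CPM in HET24 and 7.33 to 11.8 CPM in the low class.

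Further genes of this kind were *Aebp1* (log2 fold change 3.63), *Mfrp* (3.63), *Scara5*, a scavenger receptor gene (3.99), *Lepr*, the leptin receptor gene (1.92), *Pltp*, the phospholipid transfer protein gene (1.38), and the long noncoding RNA *Neat1* (1.05). *Prr32*, with the largest log2 fold change after *Ttr*, was at 5.85 to 7.89 CPM in the high WT embryos and 1.46 CPM in HET24, had no read in WT5, WT43 and HET5, and was at 0.0233 CPM in HET6 and 0.0206 CPM in HET7. *2900040C04Rik* and *Klk4* had no read in any low embryo and were at 1.13 to 1.36 CPM and 0.877 to 1.60 CPM in the high WT embryos. The cell adhesion gene *Cdh3* and the collagen gene *Col8a2* were at 7.95 to 10.95 CPM and 20.7 to 27.6 CPM in the high WT embryos, with log2 fold changes of 5.41 (SE 0.51) and 4.90 (SE 0.59). The other 2 among the 20 genes with the largest log2 fold changes and a mean of at least 1 CPM in the high class were *4833427G06Rik* and *Fam243*, both under 3 CPM in every embryo.

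The promoters of a few of these genes are shown because the genes moved together and hold motifs of factors that act in plexus or ciliated cells. Promoters were taken from RefSeq on GRCm38.p6 as 300 bases, from 250 before to 50 after each transcript start, and 118 of the 165 higher genes had one. Of 14 motifs searched on both strands, 3 are given, chosen after their shares were seen. TAATCC, the core bound by OTX factors, was in the promoters of 15 of the 118 genes (12.7%) and of 7.11% of the 13022 tested genes with a promoter. GTTGCC, the first letters of the X-box bound by RFX factors, was in those of 26 genes (22.0%) and of 14.99%. TGTTTAC, bound by forkhead factors, was in those of 6 genes (5.08%) and of 3.19%. The share in the higher genes was the larger for 11 of the 14 motifs and the smaller for 3. Among the others, the E-box CANNTG was in 74.6% against 68.8%, the nuclear receptor half-site TGACCT in 16.1% against 15.1% and the CCAAT box in 38.1% against 42.4%. The TATA box was in 16.1% against 9.66%, and the full X-box was in 0.847% (1 gene) against 0.637%. The 10-letter X-box was in 4.24% against 0.714%, and the 6-letter forkhead motif was in 21.2% against 10.9%. Larger shares were thus not limited to motifs of factors that act in plexus or ciliated cells. A match is a description of these letters and not a site of binding. The genes shown were among those with the highest mean CPM in the high class, leaving out promoters on the chromosome of *Ttr*. *Nr2f2*, the gene with the highest such mean among those holding TAATCC, at 83.9 CPM, is not shown. The sequences read 5′ to 3′ on the strand of the gene, with the motif in capitals, for *Wdr63* (TAATCC on the opposite strand, written GGATTA; chr3:146107987-146108286, minus strand), *Kcne2* (GTTGCC on the opposite strand, written GGCAAC; chr16:92292139-92292438, plus strand), *Aqp1* (GTTGCC; chr6:55336049-55336348, plus strand), *Cfap43* (TGTTTAC on the opposite strand, written GTAAACA; chr19:47837312-47837611, minus strand) and *Ak7* (TGTTTAC; chr12:105705732-105706031, plus strand). *Wdr63*, *Cfap43* and *Ak7* encode ciliary proteins, and the potassium channel subunit and water channel genes were described above.
Wdr63: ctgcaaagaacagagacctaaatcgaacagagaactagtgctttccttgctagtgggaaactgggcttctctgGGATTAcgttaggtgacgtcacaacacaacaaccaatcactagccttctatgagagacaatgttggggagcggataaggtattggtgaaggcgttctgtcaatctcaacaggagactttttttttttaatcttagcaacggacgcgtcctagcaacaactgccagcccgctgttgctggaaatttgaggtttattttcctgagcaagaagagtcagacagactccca
Kcne2: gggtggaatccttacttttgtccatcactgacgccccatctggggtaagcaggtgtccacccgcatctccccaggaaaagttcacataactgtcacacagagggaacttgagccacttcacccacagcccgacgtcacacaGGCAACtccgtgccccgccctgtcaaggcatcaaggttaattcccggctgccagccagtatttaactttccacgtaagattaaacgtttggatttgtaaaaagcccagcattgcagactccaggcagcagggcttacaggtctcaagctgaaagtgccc
Aqp1: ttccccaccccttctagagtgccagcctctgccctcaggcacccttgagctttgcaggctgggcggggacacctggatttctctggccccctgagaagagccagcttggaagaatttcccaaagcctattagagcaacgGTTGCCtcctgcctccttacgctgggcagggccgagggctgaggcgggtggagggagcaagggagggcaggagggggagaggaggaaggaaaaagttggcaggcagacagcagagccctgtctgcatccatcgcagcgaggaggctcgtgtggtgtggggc
Cfap43: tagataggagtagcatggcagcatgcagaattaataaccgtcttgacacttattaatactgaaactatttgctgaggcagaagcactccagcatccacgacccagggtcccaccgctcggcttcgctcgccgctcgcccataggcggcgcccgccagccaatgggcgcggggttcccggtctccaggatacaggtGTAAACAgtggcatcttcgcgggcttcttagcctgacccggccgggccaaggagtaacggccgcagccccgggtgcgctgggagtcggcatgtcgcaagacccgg
Ak7: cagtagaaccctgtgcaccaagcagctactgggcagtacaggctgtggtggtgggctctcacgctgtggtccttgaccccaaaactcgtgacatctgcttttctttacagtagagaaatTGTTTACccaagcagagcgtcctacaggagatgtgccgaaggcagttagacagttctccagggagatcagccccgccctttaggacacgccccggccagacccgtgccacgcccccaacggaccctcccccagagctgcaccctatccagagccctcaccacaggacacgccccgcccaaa
*Wdr63*, *Kcne2*, *Aqp1*, *Cfap43* and *Ak7* were higher in the high class, with log2 fold changes of 3.45, 6.57, 4.396, 2.59 and 3.398.

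Few genes were lower in the high class. *Hk2*, the glycolytic enzyme hexokinase 2, was at 23.7, 25.4, 28.8 and 27.8 CPM in WT15, WT16, WT41 and HET24 and at 48.6, 43.7, 50.7, 38.2 and 31.9 CPM in WT5, WT43, HET5, HET6 and HET7, without overlap. *Plcxd2* was at 83.2 to 109 CPM in the high and 124 to 159.9 CPM in the low embryos, also without overlap. The log2 fold changes of *Hk2* and *Plcxd2* were -0.72 (SE 0.14) and -0.54 (SE 0.11). Leaving out one embryo at a time, *Hk2* still passed in 3 of 9 fits and *Plcxd2* in 1 of 9. The other 3 overlapped between the classes. *H1f2*, a linker histone gene, was highest in WT5 and WT43, at 18.7 and 14.9 CPM against 6.16 to 9.91 CPM elsewhere. *Gm5561* was at 4.22 CPM in WT43 and at 0 to 0.0724 CPM in the other 8 embryos, so that 1 library set its value. *Kcnj10*, the potassium channel gene of glia, was at 43.7 to 53.5 CPM in the high WT embryos and 62.9 and 68.3 CPM in the low WT embryos, and at 17.4 CPM in HET24 and 27.3 to 27.4 CPM in the other HET embryos.

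HET24 was the only HET embryo of the high class, so the genes were also chosen in WT embryos alone and then read in the HET embryos, which had no part in that choice beyond a shared estimate of spread. Between the 3 high and the 2 low WT embryos, 399 genes (2.07%) were higher and 19 (0.0988%) were lower at an adjusted p under 0.05 (edgeR). The count of 399 was 188 without WT5, 221 without WT43 and 250 without WT15. Of the 399 genes, HET24 lay above all 3 other HET embryos in 289 (72.4%) and below all 3 in 22 (5.51%). Over all tested genes these shares were 24.3% and 22.8%. Leaving out one other embryo at a time, the 72.4% was between 71.5%, without HET5, and 85.9%, without HET7, and it was 84.6% without WT5. The genes were chosen anew each time, and without a HET embryo HET24 had fewer embryos to exceed. The share of 24.3% over all tested genes is for 3 other HET embryos and was not recomputed for those settings. Of the 19 genes lower in the high WT embryos, HET24 lay below the other HET embryos in 4 and above them in 4.

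The fit of HET24 against the 3 other HET embryos, in which the single embryo was assumed to vary like the other groups, gave 21 genes higher (0.109%) and 0 lower (0%), with 234 lower at an unadjusted p under 0.05. The 21 include *Ttr*, and HET24 was set apart from the other HET embryos by its *Ttr*, so these calls describe that embryo and are no test of a condition. All 21 were among the 399 of the WT contrast, and 11 of the 20 other than *Ttr* were choroid plexus identity genes. *Kcne2*, *Folr1*, *Slc4a5*, *Cldn1*, *Slco1a4*, *Tmem72*, *Aqp1* and *Slc13a4* were among the 21, with log2 fold changes in HET of 5.08, 2.54, 3.95, 3.79, 3.90, 5.49, 2.27 and 4.12. In WT the same genes had 7.80, 5.58, 6.90, 6.60, 7.32, 8.24, 5.73 and 5.71, each larger than in HET.

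On the linear scale, HET24 held about the same fraction of the WT excess for many genes. The excess is the mean CPM of the high embryos of a genotype minus that of its low embryos. For *Ttr* it was 2414 CPM in WT and 461 CPM in HET24, which is 19.1% of the WT value. For the 117 other genes chosen in WT embryos with a WT excess of 5 CPM or more, the median was 16.4%, the quartiles were 11.8% and 20.2%, and 93 of 117 lay between 10% and 30%. That band was not planned in advance, and the share of all tested genes within it was not computed. Leaving out one other embryo at a time, this median was between 14.97%, without WT16, and 18.2%, without HET7. HET24 lay above all 3 other HET embryos in 90 of the 117. Among the 57 of the 165 genes with such an excess, which were chosen with HET24, 56 lay between 10% and 30%, from *Col8a1* at 10.7% to *Spef2* at 29.6%. *Nr2f2*, a nuclear receptor gene, was the exception at 133%, with HET24 at 95.4 CPM above every WT embryo.

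Some genes of the WT contrast did not follow. In 8 of the 117, HET24 lay below the mean of the other HET embryos. *Apoe*, the apolipoprotein E gene, was at 126, 121 and 110.1 CPM in WT15, WT16 and WT41 and at 72.3 and 58.2 CPM in WT5 and WT43. In HET embryos *Apoe* was at 78.1 CPM in HET24 and 78.5 to 86.2 CPM in the others. *Zfp46* gave the lowest value, at -82.9%, with 90.03 to 108 CPM in the high WT, 69.3 and 75.5 CPM in the low WT, 71.8 CPM in HET24 and 92.6 to 99.7 CPM in the other HET embryos. *Bmp7*, *Pbxip1*, *Fkbp10*, *Tctn2*, *Mamdc2* and *Cntn1* were the others.

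**Figure D4:**
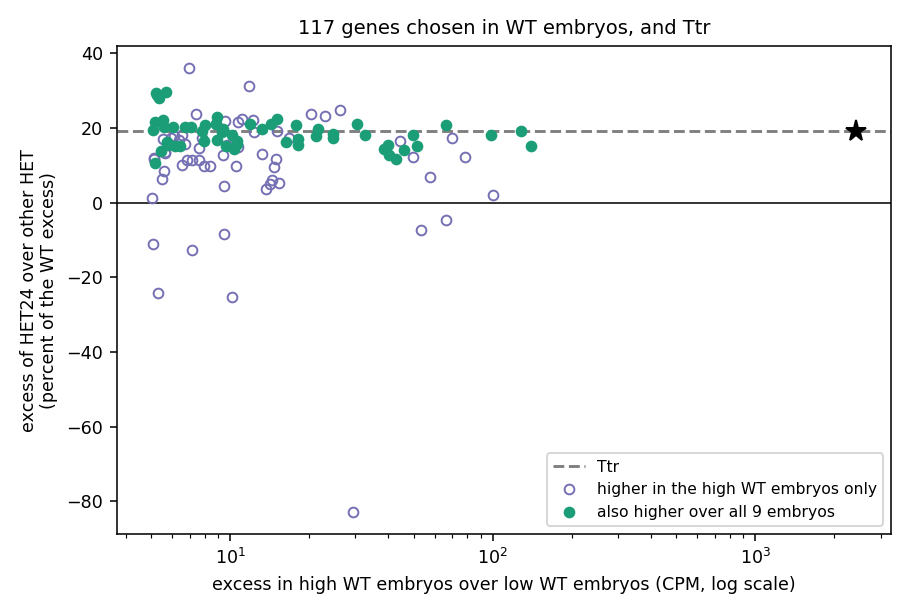
Excess of HET24 over the 3 other HET embryos, as percent of the WT excess (vertical axis), against the WT excess in CPM (horizontal axis, log scale), for *Ttr* (star) and 117 other genes chosen in WT embryos, 1 point per gene. The dashed line marks *Ttr* at 19.1%, 93 of the 117 genes lie between 10% and 30%, and 8 lie under 0.

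The WT embryos of the high class also differed among themselves. *Ttr* in WT16 was 0.840 of the mean of WT15 and WT41, and the median of this ratio over the other 164 higher genes was 0.843, against 1.004 over 14454 tested genes with a mean of 1 CPM or more in the high class. The 165 genes summed to 4489, 3672 and 4372 CPM in WT15, WT16 and WT41, 1150.1 CPM in HET24 and 317 to 446 CPM in the low class. *Ttr* alone made up 62.8% of the summed WT excess of the 165 genes and 61.5% of that of HET24.

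In edgeR's interaction contrast, 11 genes passed, all with a smaller class difference in HET, where HET24 is the only high embryo (0.0572% of the tested genes lower, 0% higher, Benjamini-Hochberg). HET24 had less *Ttr* than the WT embryos of its class, by the same values that made the classes, so a smaller difference was built into the division and these calls are no test of genotype. At an unadjusted p under 0.05, 493 genes had a larger and 593 a smaller difference in HET. The 5 genes with the smallest p were *Folr1* (-3.04, SE 0.25), *Cldn2* (-4.15, SE 0.39), *Aqp1* (-3.46, SE 0.33), *Enpp2* (-1.78, SE 0.19) and *Wfikkn2* (-2.87, SE 0.32), as log2 of the HET difference over the WT difference. The count was 3 without WT15 or without HET6 and 16 without HET5.

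For *Cldn2* the low embryos also differed by genotype, at 0.169 and 0.155 CPM in WT5 and WT43 and 0.565, 0.583 and 0.722 CPM in HET5, HET6 and HET7. Among the low embryos, the 3 HET lay all above the 2 WT in 7 of 24 choroid plexus identity genes, 15 of 39 cilia genes and 44 of the 165 higher genes (26.7%), against 8.24% of all tested genes. They lay all below in 0, 1 and 7 of these, against 9.1%. The low HET embryos also had more *Ttr*, at 2.46 to 11.7 CPM of raw counts against 0.750 and 2.12 CPM, so genotype and a small amount of plexus RNA cannot be told apart there.

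Because 3 of the 4 high embryos were WT, the Ttr class bears on the comparison of genotypes. The 165 genes were chosen as higher in that class, and HET24 had less *Ttr* than its WT embryos. Lower values in HET over all 9 embryos, without or with the class, were thus largely built into this choice and are no test of genotype. Without the class in the fit, the 165 genes had a median log2 fold change of -1.84 in HET against WT, and 164 of 165 were below 0. With the class the median was -0.68, and 156 were below 0, and among the 5 low embryos alone it was 0.28, with 35 below 0. The medians over all tested genes were -0.00, -0.00 and 0.00. None of the 165 was called by genotype in edgeR's fit with the class (0 of 165, with 1 higher and 49 lower at an unadjusted p under 0.05) or without it (0 of 165, with 0 higher and 118 lower). With the class, DESeq2 and limma-voom each called 0 higher and 3 lower. For *Ttr* the log2 fold change of HET against WT was -3.57 (adjusted p = 0.89, edgeR) without the class.

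**Figure D5:**
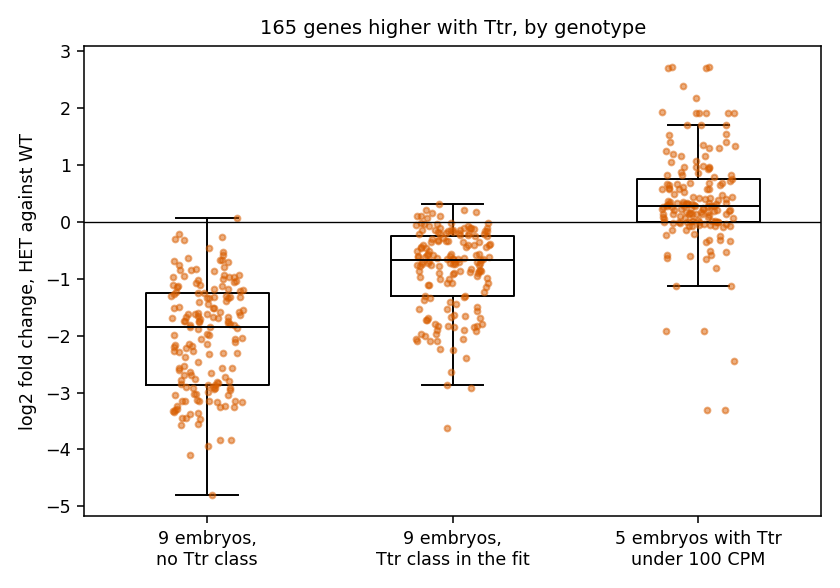
Log2 fold change of HET against WT for each of the 165 genes higher with *Ttr*, over 9 embryos without and with the Ttr class in the fit, and over the 5 embryos with *Ttr* under 100 CPM, 1 point per gene with the box at the quartiles and whiskers to 1.5 times the interquartile range. The medians are -1.84, -0.68 and 0.28. The genes were chosen by a class that was mostly WT and whose HET embryo had less *Ttr*, so the values over 9 embryos are no test of genotype.

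Over all genes, genotype gave 24 calls with the class (2 higher, 0.0104%, and 22 lower, 0.114%) and 26 without it (5 higher, 0.026%, and 21 lower, 0.109%), of which 23 were shared. *Eya1*, which encodes a transcriptional cofactor and phosphatase, was called with the class, at -0.83 (SE 0.12, adjusted p = 0.029, edgeR), and not without it, at -0.71. *Eya1* was at 18.2 to 28.9 CPM in the 5 WT and 11.8 to 16.9 CPM in the 4 HET embryos. *Egln3*, *Eln* and *Trim47* were called without the class, at 0.60, 0.52 and 0.78 (adjusted p = 0.044, 0.047 and 0.033, edgeR), and not with it, at 0.52, 0.47 and 0.79 (adjusted p = 0.053, 0.10 and 0.086). *Egln3* encodes an oxygen-sensing prolyl hydroxylase, *Eln* encodes elastin and *Trim47* encodes a ubiquitin ligase. *Kcnj10* was the 1 gene called for both class and genotype, with a log2 fold change of HET against WT of -1.34 with the class and -1.15 without it.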

How the data were processed

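Per the labels and the methods of the study, the authors prepared polyadenylated RNA from forebrain, aligned 1 read of each pair to GRCm38.p6 with STAR 2.7.9a and counted reads per GENCODE M25 gene with featureCounts; strand and multimapping settings are not given in the sources used here. The deposited values are raw counts for 55401 genes, and no column of another sample was used. Counts were tested with edgeR 4.0.16 in R 4.3.3 (quasi-likelihood, TMM, Benjamini-Hochberg) for 19240 genes that passed filterByExpr over genotype and class, in which HET24 is alone in its cell, so that a gene could pass through 1 library. DESeq2 1.42.0, limma-voom (limma 3.58.1) and other filters, scalings and left-out embryos were alternatives, and scripts were tested on simulated data. Named were the 20 largest higher and up to 10 lower genes with a mean of at least 1 CPM in the class where they are higher, and list members past the threshold. Members and lists were chosen with earlier results of these data known. Where nothing says that embryos of one group came from separate litters, p-values measure the spread between these samples. Gene positions are from GENCODE M21.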

Additional observations from a re-analysis of the deposited data

Results flagged for a closer look

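Of 88 groups of 4 or 5 values looked at, 5 held an embryo far from the others by Dixon's test. Chance does this for about 1 in 20 groups, and 5 of 88 is near that rate. Of the 5, 3 were HET24. Of these 3, the values that made the classes fixed one outright: HET24 had 468 CPM of *Ttr* among the HET embryos, the nearest being 11.7 CPM. Choroid plexus identity genes, which include *Ttr*, summed to 578 CPM in HET24, the nearest HET embryo being at 55.3 CPM. Without *Ttr* the sums were 109.99 CPM in HET24 and 43.6 CPM in HET7. Genes of secreted plexus proteins summed to 644 CPM in HET24 within the high class, the nearest being at 983 CPM. Mural cell genes summed to 141 CPM in WT16, the nearest WT embryo being at 169 CPM. Diencephalon genes summed to 815 CPM in WT5, the nearest WT embryo being at 588 CPM.

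In edgeR's interaction contrast of the class difference in HET against that in WT, 11 genes passed. As log2 of the HET difference over the WT difference, it was -3.04 for *Folr1*, -4.15 for *Cldn2*, -3.46 for *Aqp1*, -1.78 for *Enpp2*, -2.87 for *Wfikkn2* and -3.01 for *Calml4*. It was -1.85 for *Gpc3*, -2.53 for *Clic6*, -2.48 for *Sostdc1*, -2.14 for *Car12* and -2.85 for *Trpm5*. HET24 is the only HET embryo of the high class and had less *Ttr* than the WT embryos there, so smaller differences were built into the classes and the calls are no test of genotype.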

How the results depend on the processing

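None of the recomputed values of single genes changed direction under the alternatives run. Of the values of single genes recomputed between the classes, 747 of 904 stayed on their side of the threshold and 157 fell short of it. The 165 higher and 5 lower genes became 545 and 211 without a filter, 48 and 2 with at least 1 CPM in at least 4 embryos, 393 and 71 by DESeq2, 395 and 16 without genotype, 395 and 30 in WT embryos only, 447 and 83 on log2 *Ttr*, 503 and 21 on linear *Ttr*, and 3 lower by upper-quartile scaling. Leaving out one embryo gave 25 to 392 higher and 1 to 150 lower.

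By list, the 6 transport genes became 13 without a filter, 10 in WT only, and 11 and 12 on log2 and linear *Ttr* (1 to 9 leaving out one embryo). The 4 secreted genes became 15, 11, 14 and 13 under these, 13 by DESeq2 and 12 without genotype (0 to 12). The 1 transcription factor gene became 4, 4, 3 and 5 under the same, 5 by DESeq2, 4 without genotype and 0 with at least 1 CPM (0 to 3). The 8 cilia genes became 27, 25, 23 and 27, 23 by DESeq2, 21 without genotype and 2 with at least 1 CPM (0 to 21). The 17 identity genes were 11 to 19 leaving out one embryo.

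For HET against WT, the 2 higher and 22 lower genes became 26 and 82 without a filter and 19 and 58 by DESeq2. There were 4 higher with log2 *Ttr*, 5 higher without the class and 12 lower in low embryos only. Leaving out one embryo gave 0 to 2 higher and 14 to 28 lower. It gave 188 to 446 higher and 1 to 71 lower within WT, 13 to 25 higher and 0 to 2 lower for HET24, 0 to 4 higher and 3 to 16 lower for the difference between genotypes, 71.46% to 85.87% for HET24 above the other HET embryos, and 14.97% to 18.17% for the median excess. The alternatives for this share and this median were chosen after seeing the data. Where an arm was left with 1 embryo, it was assumed to vary like the other groups. No paired analysis was possible because the litters were not given. WT and HET share 1 replicate number, 5, which nothing says marks a pair. The cause of these shifts was not tested.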
